A study of Mus musculus with 6 samples.

Results

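Reverse transcription stops at 124 candidate RNA G-quadruplex sites in 47 genes for chromatin remodellers and modifiers are described here, out of 5538 sites in the deposited tables. A site was included when its gene symbol began with Chd, Arid, Brd, Kdm, Kmt, Setd, Mta or Tet followed by a digit, began with Smarc, Ehmt, Hdac, Sin3, Ncor or Dnmt, or was Trim28; no measured value entered this choice. The 124 motifs fall into 94 loci whose motifs do not overlap, so some sites share bases, and reads, with another site of the same gene. All 47 symbols were found in the RefSeq gene table. The sites divide by the proteins' roles into 34 in 13 genes for nucleosome remodellers, 9 in 2 genes for other ARID DNA-binding proteins, 11 in 5 genes for bromodomain proteins, 13 in 6 genes for histone demethylases, 32 in 10 genes for histone methyltransferases, 16 in 7 genes for deacetylases and corepressors, and 9 in 4 genes for DNA methylation and its removal. Trim28, Dnmt3l, Tet2, Tet3, Smarcb1, Chd1, Kdm2b, Ehmt1, Hdac1, Hdac2, Sin3a and Sin3b were not analysed here.

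All samples came from 1 clonal mouse embryonic stem cell line, heterozygous for TsixTST (TsixTST/+) on a 129S1/CastEiJ x 129S1 background, whose genotype and treatment are labelled WT and None. The groups were day 0 (stem cells grown on inactivated feeders with leukemia inhibitory factor), day 3 and day 7 of embryoid body differentiation without that factor, after feeders had been removed. Bodies floated up to day 3 and grew attached to gelatin from then on, so time and attachment changed together between days 3 and 7. Each day had 2 replicates. Nothing in the labels says whether these were separate cultures, so p-values measure only the spread between these samples, which may be technical. All cells, day 0 included, were treated with dimethyl sulfate (DMS) before chromatin-bound polyadenylated RNA was isolated and fragmented. Each day 7 sample also has a table named in vitro, whose preparation the labels do not describe.

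A G-quadruplex is a stack of guanine quartets that forms where several runs of guanine lie close together, and K+ holds it together whereas Li+ does not. Reverse transcriptase, which reads RNA from its 3′ end, tends to halt where it meets the folded structure, so a stop share (stops divided by reads over the site) that is higher in K+ than in Li+ is the signal of the assay. DMS methylates guanines at a nitrogen that the quartets occupy, so a motif that was open in the cell is blocked from folding later in the tube. The proteins encoded by these genes move nucleosomes, add, remove or read histone marks, or methylate and oxidise DNA cytosines. Several, such as the BAF complex ATPase Smarca4 and the de novo DNA methyltransferases Dnmt3a and Dnmt3b, are known for their part in the exit from pluripotency.

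The motifs that the results turn on are printed 5′ to 3′ as RNA-sense DNA letters, with runs of 2 or more guanines in capitals, as the deposited tables give them. Coordinates are GRCm38.p6, counted from 1, with the strand after them. The first set holds the motifs of genes whose read level was called different between days, with the limits of these calls given below. The Arid3a site, of 60 bases, is too long to print. These motifs are shown so that their loops and guanine runs can be compared.
Arid1a, chr4:133681038-133681051, minus, coding: GGagtGGtGGtGGG
Arid2, chr15:96287918-96287931, plus, coding: GGtGGGtGGGaaGG
Chd2, chr7:73429226-73429248, minus, 3′ UTR: GGGaagtGGGGGcacaGGGtGGG
Chd3, chr11:69348725-69348751, minus, coding: GGGagaGGacGGaGGGGGaaacaGGGG
Kdm2a, chr19:4316500-4316526, minus, 3′ UTR: GGGtttGGttttttGGGGGtGGGtGGG
Setd7, chr3:51519790-51519819, minus, 3′ UTR: GGGctctGGGaaaGGGGagagatgcttGGG
Dnmt3a, chr12:3908651-3908676, plus, 3′ UTR: GGGGagaGGGGagcagctGGaGGGGG
Dnmt3b, chr2:153687134-153687160, plus, 3′ UTR: GGagctcaGGaaGGGtGGGtGGagtGG

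The second set holds the sites whose stop shares are followed in detail, shown because they include both the smallest and the largest losses of stop share in cells on the log2 odds scale.
Setd5, chr6:113153285-113153309, plus, 3′ UTR: GGGGGGGaGGGtGGGGGGaGGGGGG
Brd2, chr17:34112340-34112366, minus, 3′ UTR: GGGGcaaGGGtatGGGtGGGagtGGGG
Chd4, chr6:125130144-125130160, plus, 3′ UTR: GGGGcaGGGaGGGaGGG
Kdm5c, chrX:152272770-152272795, plus, coding: GGaGGaaGGtGGatcGGGGtGGGGag
Setd6, chr8:95718824-95718843, plus, 3′ UTR: GGagaGGaGGGaaatttGGG
The Setd5, Brd2 and Chd4 motifs are of the authors' canonical class, with runs of at least 3 guanines and short loops, whereas Setd6 is of the two-quartet class and Kdm5c of the bulged class.

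Coding sequence held 44 of the 124 sites (35.5%), against 24.2% of all 5538, and the 3′ UTR alone held 60 (48.4%), against 50.1%. Bulged motifs were the most frequent class with 49 sites (39.5% against 41.7% overall), followed by 30 two-quartet sites (24.2% against 19.2%) and 20 canonical sites (16.1% against 15.7%). The median motif was 27 bases long with 62.3% G, against 28 bases and 61.3% over all sites. The letters GGAGGAGG, searched on the transcript strand only, stood in 23 of the chromatin sites (18.5%), of which 18 were coding, and in 9.46% of all sites. The most 3′ of a site's deposited stop positions was the first base 3′ of the motif at 76 sites. It lay within the motif at 45 and at the second base 3′ of it at 3. These shares lay close to those of all sites (61.3% against 58.5% for the first base). These are descriptions without a test. Chd4, the ATPase of the NuRD complex, held 13 of the sites in 8 loci, more than any other gene of the set, and Kmt2d, a histone H3 lysine 4 methyltransferase, held 7 in 6 loci.

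In the whole series, summed reads over sites in cells ranged from 485662 to 2558224 per K+ library and from 413278 to 4212056 per Li+ library, most of them in 13 ribosomal and mitochondrial sites. Over the chromatin sites they ranged from 1063 to 10669 in K+ and from 1573 to 19919 in Li+, so many single sites had few reads. The K+ library of day 3 replicate 1 stood apart: outside ribosomal and mitochondrial sites its stop share was 9.62%, against 4.37% to 5.84% in the other K+ libraries from cells. Summed marker reads of pluripotent cells (4 of 8 listed genes measured) were between 2432 and 2959 CPM (reads scaled to a common library size) on days 0 and 3 and were 423 and 806 on day 7. Epithelial markers (4 of 4 measured) ranged from 247 to 388 on days 0 and 3 and were 1219 and 956 on day 7. Feeder fibroblast markers (2 of 7 measured) ranged from 59.6 to 234. The mesoderm gene T was listed at 0 on days 0 and 3, neuroectoderm markers (3 of 5) ranged from 33.7 to 225, and none of 6 endoderm markers was measured.

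In the in vitro tables every chromatin site had stops in K+. The K+ stop share of the 124 sites, averaged over both replicates, ran from 17.9% to 99.4% with a median of 50.0%, beside 51.4% over all sites, and the median Li+ share was 6.20% beside 5.42%. All 5538 sites, these 124 included, had a K+ share above the Li+ share in both in vitro tables, so the list holds only such sites and this contrast is a description. With 20 or more reads in all 8 day 7 and in vitro libraries, 59 of 60 chromatin sites passed limma's adjusted p of 0.05 for K+ above Li+ (99.5% of 2648 sites did). The site that did not was a coding site of Chd4, with 20 stops in 55 K+ reads and 12 in 83, and a fitted log2 odds difference of 0.93 ± 0.61 (SE).

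The 10 largest K+ minus Li+ differences among the 34 chromatin sites with 50 or more reads in each in vitro library came from 7 genes. The Chd4 3′ UTR motif led with 1002 stops in 1132 K+ reads (88.5%) and 1890 in 2035 (92.9%), against 13.8% and 13.3% in Li+. The longer Dnmt3b motif followed with K+ shares of 79.3% and 80.1%, and the shorter Dnmt3b motif nested in it had a mean of 63.5%. A two-quartet coding site of Chd4 reached a mean of 63.7%, with 3.66% in Li+. Next came the 3′ UTR sites of Brd2, a bromodomain protein that binds acetylated histones (69.6% in K+, 14.9% in Li+), and of Mta2, a NuRD subunit (59.7% and 8.77%). An Arid3a 3′ UTR site, the Smarce1 motif, the Kdm5c coding motif and a further Brd2 site completed the list, with mean K+ shares between 46.1% and 55.1%. By role, the median in vitro K+ share was lowest over the remodellers' sites (41.9%) and highest over the demethylases' (64.6%), and single sites in every role group spread over more than that gap.

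In day 7 cells the K+ stop shares of these sites were far lower. Of 74 chromatin sites with at least 20 K+ reads in both day 7 and both in vitro libraries, all 74 had a lower share in cells by limma on log2 odds (adjusted p under 0.05), against 99.3% of 3497 sites that were lower, 0.0572% that were higher and 99.4% called in either direction. The median log2 odds difference was -4.80 over the chromatin sites and -4.30 over all sites tested. The listed sites all had K+ above Li+ in vitro, so their in vitro shares are high by choice, and the part of this in the gap was not tested. Differences between the 2 preparations cannot be told apart from folding in cells. Over the 75 chromatin sites with 20 K+ reads in both day 7 libraries the median share was 3.79%, beside 3.82% over 3534 sites. The in vitro and day 7 K+ shares of these 75 sites had a Spearman rho of 0.24, and 0.39 over all 3534; the points share the same libraries and several share reads.

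**Figure D1:**
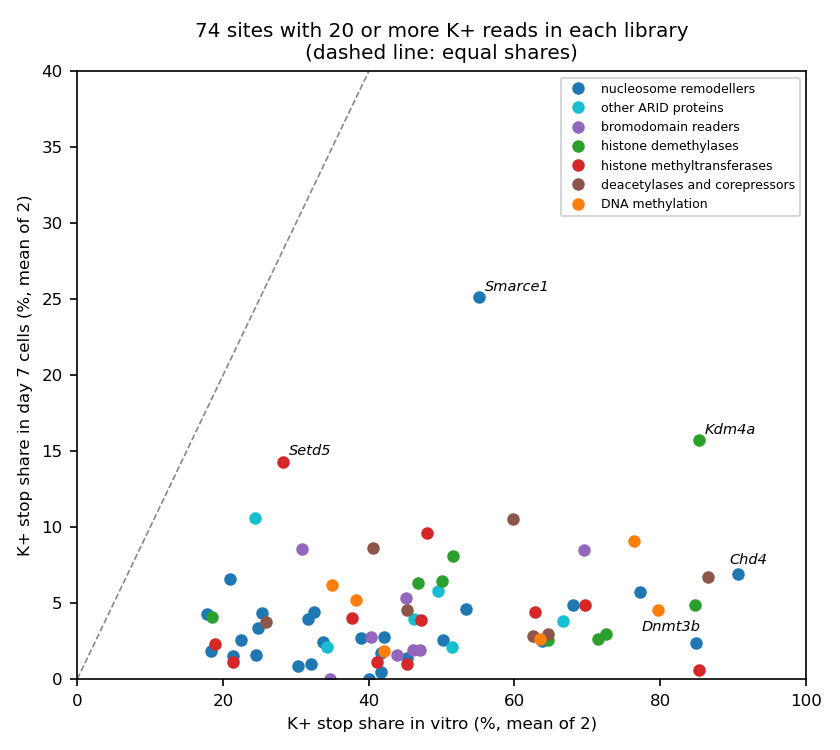
K+ stop share in vitro (horizontal axis, %) against the K+ stop share in day 7 cells (vertical axis, %) for 74 chromatin gene sites, each point the mean of 2 libraries and coloured by the role of the encoded protein. Every point lies below the dashed line of equal shares; Smarce1 lies highest at 25.1% in cells, and the Chd4 motif, at 90.7% in vitro, lies at 6.91%.

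On the log2 odds scale, the smallest losses of K+ stop share among these 74 sites were at Setd5, Arid3a and Smarce1. In percentage points the order differed: a Smarcc1 site lost least (17.9% to 4.28%, 13.6 points), followed by the Arid3a and Setd5 sites (13.8 and 13.9), while Smarce1 fell from 55.1% to 25.1%. The Setd5 motif (Setd5 is a SET domain protein) had 53 stops in 311 K+ reads (17.0%) and 25 in 216 (11.6%) on day 7, against 27.2% and 29.1% in vitro. That is a log2 odds difference of -1.22 ± 0.30 (SE; adjusted p = 0.00185). It is 1 of 4 motifs that overlap there, and the 2 longer ones lost more: the bulged motif fell from a mean of 21.4% to 1 of 113 reads and 1 of 76 (-4.11 ± 0.99), and the long-loop motif from 18.9% to 8 of 275 and 3 of 181 (-3.19 ± 0.58). At a 30-base 3′ UTR site of Arid3a, an ARID DNA-binding protein, the shares were 7 of 69 reads (10.1%) and 3 of 27 (11.1%) in cells, against 28.8% and 20.1% in vitro (-1.31 ± 0.57, adjusted p = 0.0406). The Smarce1 motif, in the gene of a BAF complex subunit, kept the highest share in cells of the 74, 51 of 172 reads (29.7%, exact 95% binomial interval 22.9 to 37.1) and 13 of 63 (20.6%, 11.5 to 32.7), against 54.8% and 55.5% in vitro. Its difference was -1.76 ± 0.29 (adjusted p = 0.000151).

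The largest losses, in log2 odds as in percentage points, were at Setd6, Chd2 and Chd4. Setd6, a lysine methyltransferase, had 147 stops in 165 K+ reads and 120 in 147 in vitro, and 1 in 81 and 0 in 46 in day 7 cells (-8.63 ± 1.36, adjusted p = 0.000103). For Chd2, a chromodomain remodeller, 86.4% and 83.3% in vitro stood against 1 of 21 and 0 of 26 reads in cells (-7.28 ± 1.21, adjusted p = 0.000147). The deeply covered Chd4 motif fell from 88.5% and 92.9% to 26 of 442 reads (5.88%) and 24 of 302 (7.95%), a difference of -7.09 ± 0.43 (adjusted p = 7.37e-07). The Chd4 share was above the Setd5 share in both in vitro tables and below it in both day 7 samples, an order read from the extremes of 74 sites and not tested.

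Setting the K+ share alone at 5% or more in both day 7 libraries kept 11 of 75 chromatin sites, beside 22.8% of 3534 sites; setting it at 10% or more kept 5, beside 6.03%. Those 5 were the Smarce1 motif, the 2 shorter of the 4 overlapping Setd5 motifs, the Arid3a site and a long-loop 3′ UTR site of Kdm4a, a histone H3 lysine 9 and 36 demethylase, where the shares were 6 of 29 reads and 3 of 28. Counting error at this depth is wide: the Kdm4a intervals run from 8.00% to 39.7% and from 2.27% to 28.2%.

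A K+ share in cells has to be set against Li+, where quadruplexes do not hold. Summed over chromatin sites, the K+ share was below the Li+ share in both day 0 samples (3.52% against 4.26%, and 2.51% against 4.38%) and above it in both day 3 samples (7.24% against 3.12%, and 4.56% against 2.92%). On day 7 it was above in replicate 1 (5.64% against 3.96%) and below in replicate 2 (4.00% against 4.30%). The same order held in each sample over all sites outside ribosomal and mitochondrial RNA, where K+ minus Li+ was -0.87 and -1.53 percentage points at day 0, then 5.08 and 0.40 at day 3, then 1.63 and -0.55 at day 7; whether this shift of whole libraries carries the chromatin sites with it was not tested. Among sites with 20 reads in all 4 libraries of a day, K+ lay above Li+ in both samples at 3 of 26 chromatin sites on day 0 (13.7% of 1282 sites), 10 of 17 on day 3 (48.2% of 965) and 21 of 69 on day 7 (30.6% of 3045). It lay below in both at 9 of 26 on day 0 (32.3%), 0 of 17 on day 3 (8.50%) and 13 of 69 on day 7 (16.5%).

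No chromatin site passed the test of K+ against Li+ in cells. Of 16 sites with 20 reads in all 12 libraries, limma called 0 on day 0, day 3 and day 7, as it did over all 847 sites tested (0 percent on each day). The K+ and Li+ libraries of a sample come from the same RNA, a pairing that this fit and its errors leave out. With the sample as a block 0 of the chromatin sites was called as well. At an unadjusted p under 0.05 stood 1 chromatin site on day 0 and 3 each on days 3 and 7, beside 25, 89 and 44 sites in all. Day 3 gave no call with or without the replicate whose K+ library stands apart. Fitting day 7 with the in vitro tables, chosen after seeing the data so that sites thin on days 0 and 3 could enter, tested 60 chromatin sites of 2648 and again called 0 of either (0 percent), with 4 and 127 at an unadjusted p under 0.05.

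**Figure D2:**
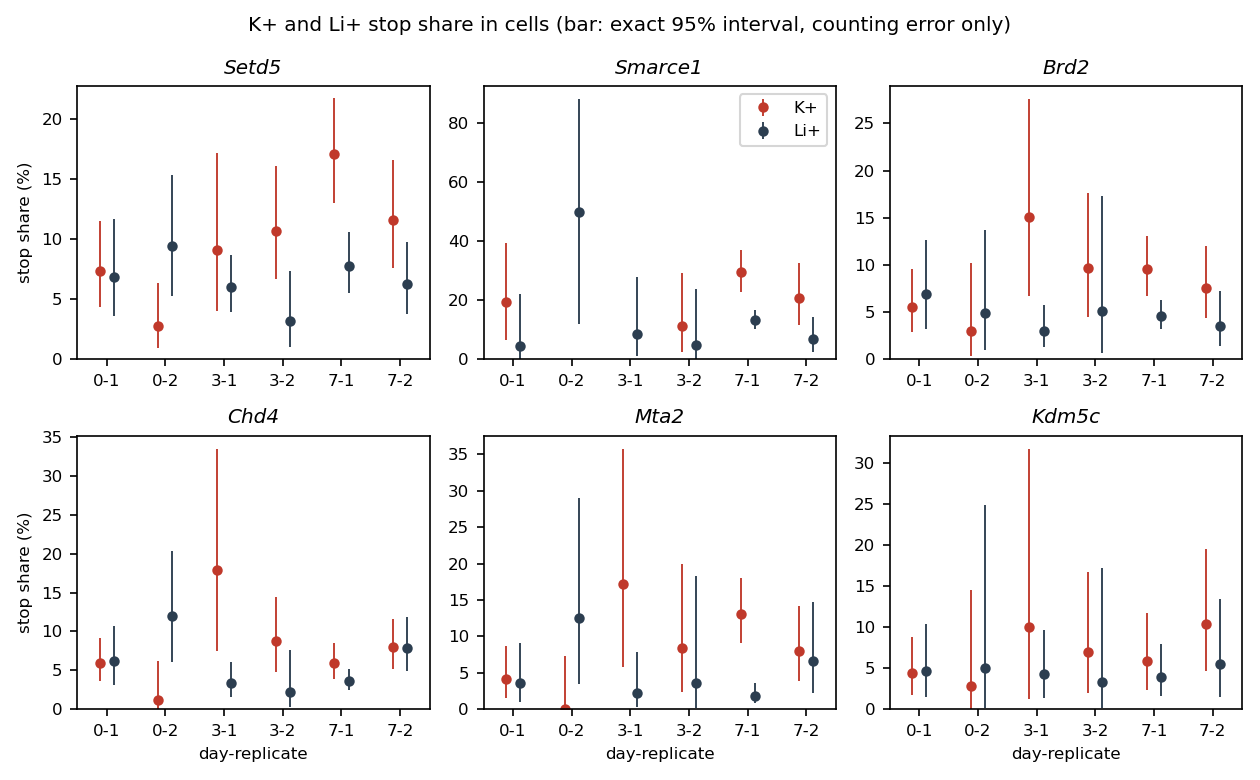
Stop share (%, vertical axis) in K+ and Li+ for 6 chromatin gene sites in each sample from cells, labelled by day and replicate; points are single libraries and bars are exact 95% binomial intervals that cover counting error only. At Setd5 the day 7 K+ shares of 17.0% and 11.6% lie above the Li+ shares of 7.76% and 6.27%. Most pairs of intervals overlap; among the day 7 pairs, those of Setd5, Smarce1, Brd2 and Mta2 in replicate 1 do not.

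The sites nearest to a difference on day 7 were the Setd5, Brd2, Mta2 and Smarce1 motifs. At Setd5 the K+ and Li+ shares were 17.0% and 7.76% in replicate 1, and 11.6% and 6.27% in replicate 2, a log2 odds difference of 1.13 ± 0.38 (adjusted p = 0.80). On day 0 the same site had K+ shares of 7.33% and 2.76% and Li+ shares of 6.86% and 9.46%, and on day 3 K+ shares of 9.09% and 10.7% and Li+ shares of 5.98% and 3.21%. K+ was thus above Li+ in both samples of days 3 and 7 but in 1 of 2 on day 0.

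Brd2 showed 35 K+ stops in 367 reads (9.54%) and 16 in 212 (7.55%) on day 7, with Li+ shares of 4.55% and 3.55% (1.10 ± 0.39, adjusted p = 0.80). Its day 3 K+ shares were 15.1% and 9.68%, against 2.99% and 5.13% in Li+ (1.86 ± 0.57, adjusted p = 0.34), and its day 0 K+ shares of 5.58% and 2.94% lay below the Li+ shares of 6.87% and 4.92%. At the long-loop Mta2 site the day 7 shares were 31 of 237 reads (13.1%) in K+ and 1.81% in Li+ in replicate 1, and 8.00% and 6.58% in replicate 2 (2.14 ± 0.71, adjusted p = 0.80), so most of the gap came from 1 sample. At Smarce1, tested only in the fit with the in vitro tables, K+ shares of 29.7% and 20.6% stood against Li+ shares of 13.3% and 6.82% (1.52 ± 0.38, adjusted p = 0.46). None of these 4 differences exceeded what the multiple-test adjustment requires, although K+ was higher in both samples at each.

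At the Chd4 motif, the strongest stop in vitro of the well covered sites, K+ and Li+ shares on day 7 were 5.88% and 3.65% in replicate 1 and 7.95% and 7.87% in replicate 2 (0.47 ± 0.54, adjusted p = 0.98). The Kdm5c coding motif, in the gene of an X-linked histone H3 lysine 4 demethylase, had 5.83% and 10.4% in K+ against 3.91% and 5.48% in Li+ (0.78 ± 0.52, adjusted p = 0.92). For Kmt5c, a histone H4 lysine 20 methyltransferase, a 3′ UTR site had 5.88% and 3.88% in K+ against 2.74% and 3.70% in Li+ (0.67 ± 0.66, adjusted p = 0.98). Sites of Smarcd1, a BAF subunit, and Brd1, a bromodomain protein of acetyltransferase complexes, had differences of -0.26 ± 0.71 and -0.23 ± 0.82, errors wider than the differences.

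Between days, the K+ share was testable at 18 chromatin sites of 954 and limma called 0 in each contrast (0 percent of all sites), with 2, 4 and 1 chromatin sites at an unadjusted p under 0.05 for day 7 against 0, day 3 against 0 and day 7 against 3, beside 78, 72 and 38 of all. The Setd5 motif came nearest, higher on day 7 than on day 0 by 1.71 ± 0.51 on the log2 odds scale (adjusted p = 0.56). K+ stop counts could be tested at 3 chromatin sites, the Brd2, Setd5 and Chd4 motifs, and 0 of them was called in any contrast, against 16.2% of 327 sites for day 7 against day 0 (10.1% higher, 6.12% lower), 0.612% for day 3 against day 0 and 6.42% for day 7 against day 3 (5.50% higher, 0.917% lower). None of the 3 passed an unadjusted p of 0.05 either, while 97, 45 and 58 of the 327 sites did. As CPM values (stops scaled to a common library size), the K+ stops of Setd5 were 101 and 100.3 at day 0, 101 and 220.2 at day 3 and 107 and 142 at day 7. For Brd2 the 3 days gave 71.1 and 40.1, then 101 and 99.1, then 70.7 and 91.0. For Chd4 they gave 113 and 20.1, then 88.0 and 143, then 52.5 and 136. The replicates of Chd4 within a day differed by more than any pair of day means, and day 7 against day 0 differed by 0.11 ± 0.73 on the log2 scale.

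The reads that cover a gene's best-covered site, K+ and Li+ summed, serve as a measure of its chromatin-bound RNA. They may not be free of stops. In vitro, the printed Brd2 motif had 999 and 2167 K+ reads, against 46 and 56 at an overlapping motif further 5′. In Li+ these motifs had 452 and 230 reads against 204 and 93. The part of stops in the read levels was not tested. In bulk samples fewer cells of a type and less RNA per cell cannot be told apart. For day 7 against day 0, 8 of 43 chromatin genes tested were called higher and 0 lower by limma-voom at an adjusted p of 0.05; over all 2389 genes 15.2% were called higher and 3.14% lower. The 8 were Setd7, Chd3, Arid2, Kdm2a, Dnmt3b, Arid3a, Chd2 and Arid1a. That count lies close to the 18.4% of all genes called in either direction, and the chromatin genes' median log2 difference was 0.34, beside 0.57 over all genes tested (0.23 and 0.42 with genes at 0 in a whole group put at their bound). With scaling by total counts alone the median over all genes became 1.01 and the calls over all genes split into 429 higher and 17 lower, against 364 and 75 with trimmed means. Of the 25 chromatin genes with reads in all 6 samples, 12 had a higher and 13 a lower fitted level on day 7, and only Dnmt3b and Arid1a were called.

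A listed 0 is not an absence, since no site in the tables has a coverage between 1 and 5 reads, so a 0 allows up to 5 reads in 1 cation and up to 10 in both. The shallowest libraries hold most zeros: of the 47 genes, 19 were at 0 in day 0 replicate 2 and 18 in day 3 replicate 2. In replicate 1 of day 0 and of day 3, 9 genes each were at 0, against 0 in day 7 replicate 1 and 4 in day 7 replicate 2. Depth moved with the day only in part. The scaled library sizes of day 0 replicate 1 (1428980 reads) and day 7 replicate 2 (1359780) were close. The part of depth in these calls was not tested. Of the 8 called genes, 6 had a 0 in at least 1 day 0 sample. Setd7, Chd3 and Arid2 were at 0 in all 4 samples of days 0 and 3 and passed the read filter only through day 7. They could therefore only be called higher, and the fit took each listed 0 as a count of 0, so their calls are descriptions. Where a day 0 sample had such a 0, the fold changes below put it at 5 reads per cation, leave day 7 as listed and are lower bounds.

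**Figure D3:**
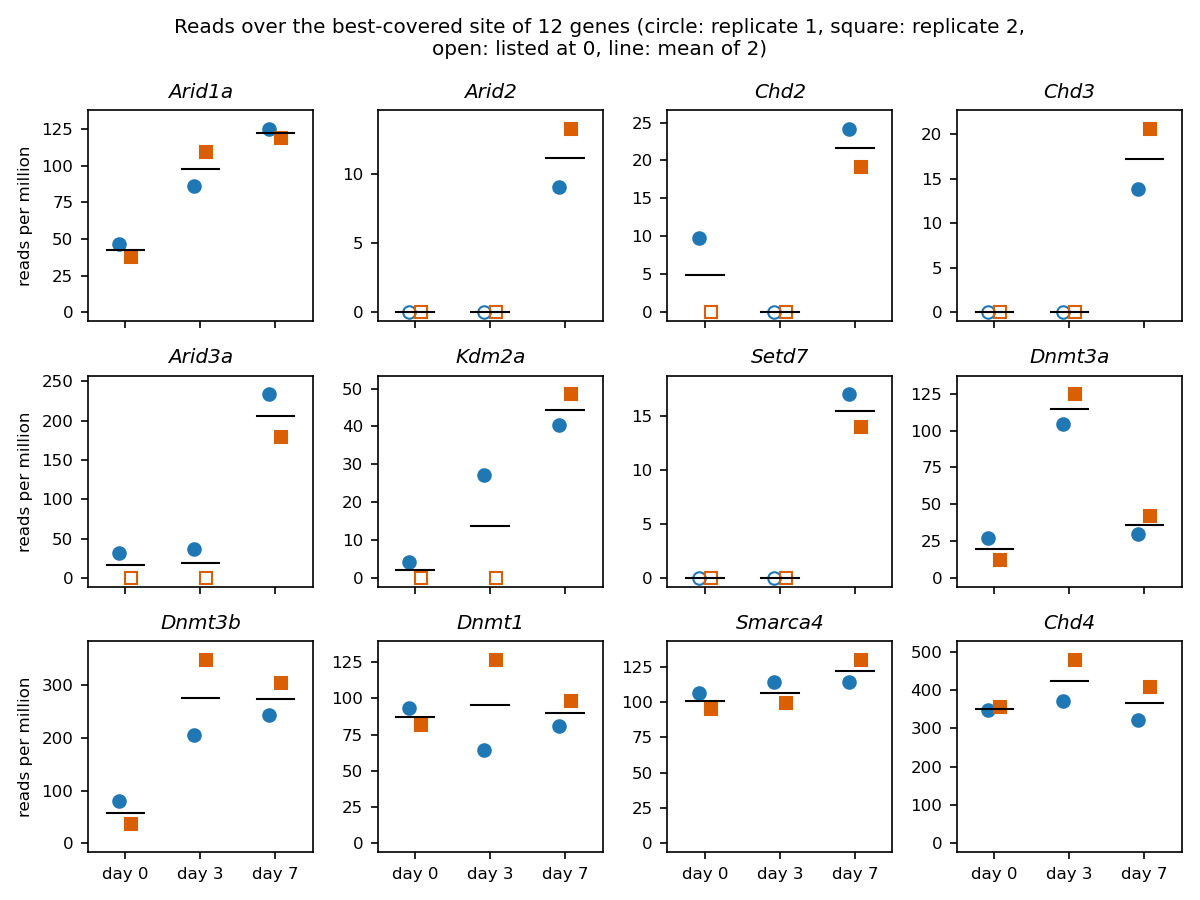
Reads as CPM (vertical axis, reads scaled to a common library size) over the best-covered site of 12 chromatin genes on days 0, 3 and 7; circles are replicate 1, squares replicate 2, open symbols are samples listed at 0 and lines are means of 2. Dnmt3b and Arid1a have reads in all 6 samples, whereas Setd7, Chd3 and Arid2 are listed at 0 in all 4 earlier samples.

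Among nucleosome remodellers 4 of 12 tested genes were called higher, beside 15.2% of all 2389 genes, and Chd3, Arid2 and Chd2 among them had listed zeros on day 0. The role groups are too small to be set apart from that share. Arid1a, a DNA-binding subunit of the BAF complex, had 46.9 and 37.7 CPM at day 0, then 86.0 and 109 at day 3, then 125 and 119 at day 7. Day 7 means exceeded day 0 means by 2.89-fold (fitted log2 difference 1.41 ± 0.40, adjusted p = 0.0479). This call ended, at adjusted p-values of 0.0557 to 0.254, with scaling by total counts, with no filter, without ribosomal and mitochondrial sites, with the 2 days fitted alone and when any 1 of the 4 samples was left out. Chd3, a NuRD ATPase, was listed at 0 in all 4 samples of days 0 and 3 and had 13.8 and 20.6 on day 7. With zeros at that limit its day 7 mean exceeded the day 0 mean at least 1.28-fold, though the limit in day 0 replicate 2, 19.9, lay above the 13.8. The limma-voom call (adjusted p = 0.00553) took the zeros as counts of 0. Arid2, a subunit of the PBAF complex, was likewise at 0 and had 9.04 and 13.2 on day 7, which is under the level that a 0 allows on the earlier days, so no fold is given although limma called it (adjusted p = 0.0161). Chd2 had 9.80 and a listed 0 on day 0, only zeros on day 3, and 24.2 and 19.1 on day 7. By means this is at least 1.31-fold over day 0, though the limit of 19.9 in day 0 replicate 2 lay above the 19.1. Its limma-voom call (adjusted p = 0.0399) took the zero as a count of 0, and its fitted difference of 3.56 dropped to 1.20 without day 0 replicate 2.

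None of the catalytic subunits tested other than Chd2 and Chd3 was called. For Smarca4 the level was 106 and 95.3 at day 0, 114 and 99.1 at day 3 and 114 and 130.2 at day 7. Day 7 against day 0 differed by 0.23 ± 0.30, which is under its error. Chd4 had 348 and 355, 370.2 and 480 (day 3), and 322 and 409 (0.04 ± 0.28). Chd8 differed by -0.18 ± 0.35 and Smarcc1, a BAF scaffold subunit listed at 0 in day 3 replicate 2, by 0.34 ± 0.56. The BAF subunit genes Smarcd1 and Smarcd2 differed by -0.11 ± 0.33 and -0.20 ± 0.33. Smarce1 had 34.3 and 11.9 on day 0 and 160.0 and 111 on day 7, at least 4.83-fold by means since 1 cation of day 0 replicate 2 was listed at 0, and did not pass (2.28 ± 0.92, adjusted p = 0.107). Chd7, listed at 0 on days 0 and 3 and with 10.4 and 8.09 on day 7, had too few reads to be tested.

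The ARID protein gene Arid3a showed the largest fitted rise. It had 31.5 and a listed 0 on day 0, 37.0 and a listed 0 on day 3, and 234 and 179 on day 7, a rise over day 0 of at least 7.54-fold (adjusted p = 0.0357), and without day 0 replicate 2 the call ended (2.70, adjusted p = 0.147). Arid3b differed by 0.21 ± 0.46. Epithelial marker reads were higher in the same day 7 samples, and their part in the change of Arid3a was not tested.

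Among demethylases 1 of 6 tested genes was called higher, beside 15.2% of all genes. Kdm2a, a histone H3 lysine 36 demethylase that binds unmethylated CpG DNA, had 4.20 and a listed 0 on day 0, 27.2 and a listed 0 on day 3, and 40.4 and 48.5 on day 7, at least 3.23 times its day 0 level (adjusted p = 0.0241). Without day 0 replicate 2 its adjusted p was 0.45. Kdm6b, which removes H3 lysine 27 methylation, differed by -0.10 ± 0.61, with 44.1 and 139 on day 0 and 58.7 and 43.4 on day 7. Kdm4a and Kdm5c differed by 0.29 ± 0.42 and -0.75 ± 0.38.

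Of 9 histone methyltransferase genes tested 1 was called higher, beside 15.2% of all genes. Setd7, a lysine methyltransferase, was listed at 0 in all 4 samples of days 0 and 3 and reached 17.0 and 14.0 CPM on day 7. With zeros at their limit its day 7 mean was at least 1.15 times the day 0 mean. That limit in day 0 replicate 2, 19.9 CPM, lay above both day 7 values. The limma-voom call (adjusted p = 0.00469) took the zeros as counts of 0. Kmt2d had 52.5 and a listed 0, then 76.2 and 69.4, then 42.5 and 61.8 (3.48 ± 1.41 for day 7 against day 0, adjusted p = 0.109), and that positive value rested on the listed 0: without day 0 replicate 2 it was -0.10. Ehmt2, an H3 lysine 9 methyltransferase, had 52.5 and 51.6 on day 0 and 46.3 and 61.0 on day 7 (-0.03 ± 0.40). Setd5 differed by -0.62 ± 0.45 and Setd6 by -0.47 ± 0.36; the Setd5 samples were at 285 and 653 (day 0), 551 and 680 (day 3), and 206 and 370 (day 7). Kmt5c and Kmt5a were at -0.84 ± 0.34 and -1.16 ± 0.47 and did not pass (adjusted p = 0.107 and 0.111).

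None of 4 bromodomain genes and none of 6 deacetylase and corepressor genes tested was called, beside 18.4% of all genes in either direction. So few genes cannot tell these groups from that share. Brd2 had 242 and 256 on day 0 and 302 and 301 on day 7 (0.28 ± 0.27), and Brd1 and Brd3 differed by -0.35 ± 0.26 and 0.22 ± 0.67. Mta2 differed by -0.28 ± 0.31 and Mta1, at 0 in both second replicates of days 0 and 3, by 3.08 ± 1.42 (adjusted p = 0.141). Mta3 and Hdac6, also at 0 in those samples, differed by 2.61 ± 1.60 and 3.22 ± 1.44. Hdac5, a class IIa deacetylase, had 46.2 and 53.6 on day 0 and 60.1 and 61.0 on day 7 (0.35 ± 0.37).

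The de novo DNA methyltransferases gave different courses. Dnmt3b had 80.5 and 35.7 CPM at day 0, then 205 and 349 at day 3, then 243 and 305 at day 7. Day 7 exceeded day 0 by 4.72-fold in means (1.90 ± 0.47, adjusted p = 0.0316). Day 3 against day 0 was of like size but did not pass (1.86 ± 0.48, adjusted p = 0.338). The day 7 call ended with the 2 days fitted alone (adjusted p = 0.0767) and without day 0 replicate 2 or either day 7 sample (0.0751 to 0.170). Dnmt3a had 27.3 and 11.9 at day 0, then 105 and 125 at day 3, then 29.8 and 41.9 at day 7, and was the only chromatin gene called lower on day 7 than on day 3 (-1.77 ± 0.36, adjusted p = 0.0160). Both day 3 samples lay above all 4 others. That call ended with scaling by total counts (adjusted p = 0.0756) and without day 3 replicate 2 or either day 7 sample.

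Dnmt1, which copies methylation after replication, had 93.1 and 81.4 at day 0, 64.2 and 127 at day 3 and 80.8 and 98.5 at day 7 (-0.04 ± 0.37). Tet1, which oxidises methylated cytosine, had 71.4 and 17.9, then 66.4 and 61.4, then 19.9 and 29.4. Its day 7 level lay below both day 3 values and overlapped day 0 (against day 0, -1.50 ± 0.57, adjusted p = 0.0934; against day 3, -1.62 ± 0.51, adjusted p = 0.0890).

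**Figure D4:**
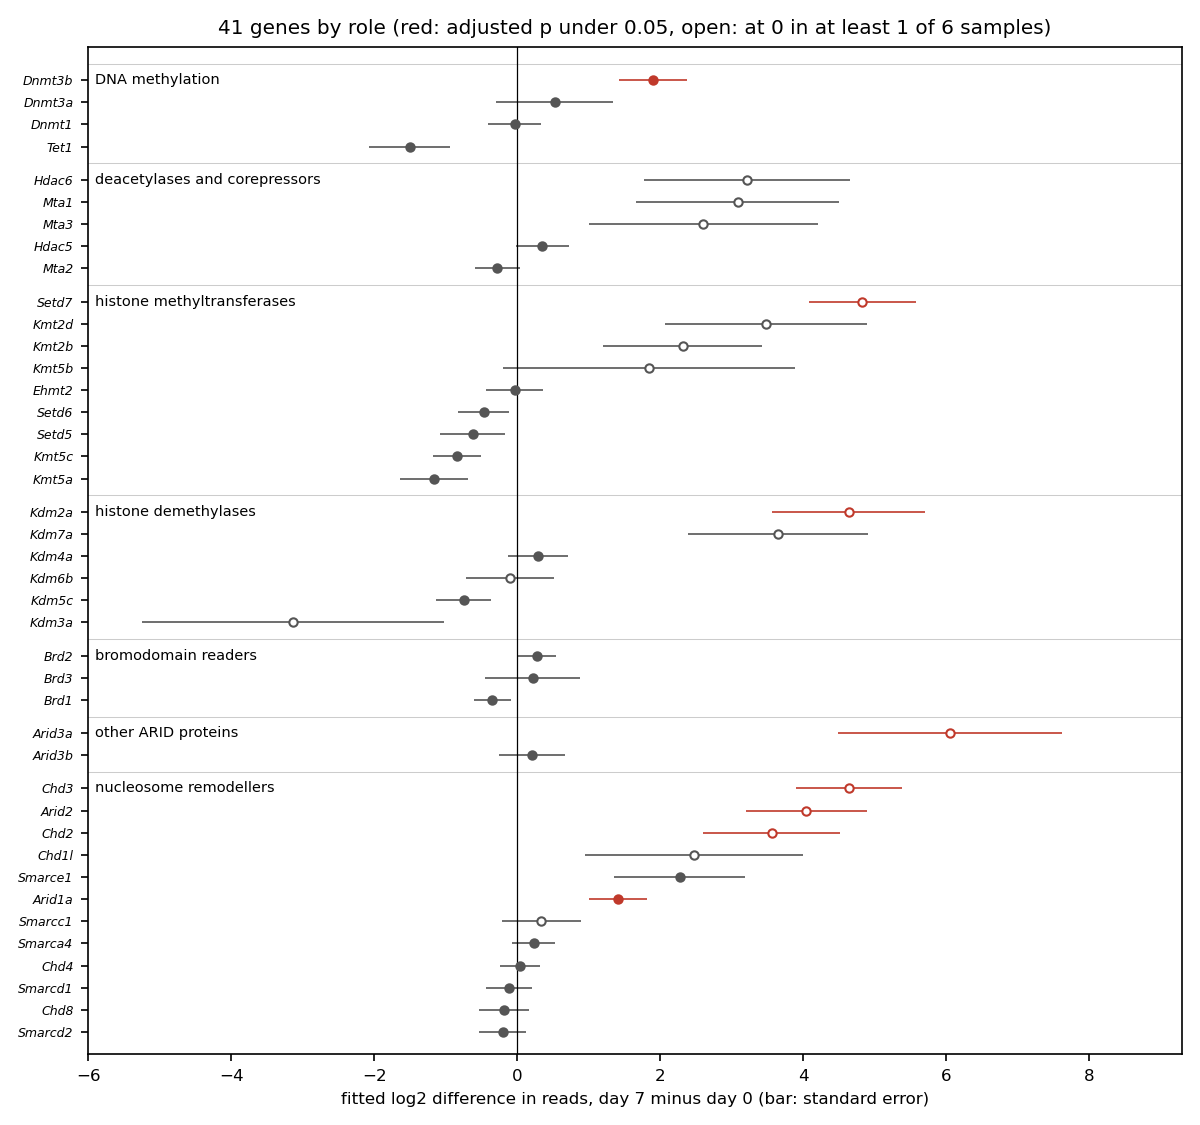
Fitted log2 difference in reads between day 7 and day 0 (horizontal axis) for 41 chromatin genes grouped by role; bars are standard errors, red marks an adjusted p under 0.05 and open points are genes listed at 0 in at least 1 of 6 samples. Of the filled points only Dnmt3b (1.90) and Arid1a (1.41) are red, and every value above that of Smarce1 (2.28) belongs to an open point.

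For day 3 against day 0 limma called 0 of 43 chromatin genes (0.0837% of all genes, or 2 of 2389), with 4 at an unadjusted p under 0.05 beside 205 in all. For day 7 against day 3 it called 4 higher (Setd7, Chd2, Chd3 and Arid2) and Dnmt3a lower, against 10.8% of all genes higher and 1.88% lower. Setd7, Chd3 and Arid2 passed the read filter only through day 7 and could only be called higher. Chd2 was listed at 0 in both day 3 samples. Leaving out a single sample leaves 1 in its group. This moved the number of calls in each contrast, over the chromatin genes as over all genes, so the number called rests on single samples. The contrasts share samples, so their values are not independent.

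A separate list of 70 other chromatin genes, such as histone acetyltransferases, the heterochromatin proteins and the INO80 complex, had 43 genes tested. Of these, limma-voom called 4 higher on day 7 than on day 0 (Crebbp, Uhrf1, Ash1l and Suv39h1) and 2 lower (Rcor2 and Ino80). Over all genes 15.2% were called higher and 3.14% lower, and the list's median log2 difference was 0.30. The genes called higher had differences of 3.82 to 4.99 with SE of 0.90 to 1.08, against SE of 0.30 and 0.37 for Rcor2 and Ino80. For day 7 against day 3 it called 3 higher (Pbrm1, Uhrf1 and Suv39h1) and 2 lower (Cbx1 and Ino80). Over all genes these shares were 10.8% and 1.88%, and none of the list was called between days 3 and 0. Listed zeros of these genes were not determined, and a gene at 0 on the earlier days could only be called higher. In K+ against Li+ on days 0, 3 and 7, 0 of 14 sites in 10 of these genes was called.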

How the data were processed

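Reverse transcription stops and reads were deposited as 8 tables, 6 from DMS-treated cells and 2 named in vitro, each with counts of stops and coverage in K+ and Li+ per site, as named per the file headers; the values are whole, unscaled counts. The deposited records are split over 2 lines each, and for that reason alone a check of units did not take them as counts. The planned quasi-likelihood count test was therefore not run, and limma-voom was used on the counts. The submitters' processing notes name GRCm38.p6 and mm10 and the tools cutadapt, STAR and SAMtools; tool versions, strand use and treatment of multi-mapping reads are not given there. Starts in the tables count from 0: all 98 sites matched to RefSeq promoter sequences of GRCm38.p6 fit this. In 2 sites a missing day 0 replicate 1 value was taken as 0. Samples were grouped by the day in their titles. Scripts used R 4.3.3 and limma 3.58.1. Counts needed 10 at the median library size in 2 libraries and 15 in total, were scaled by trimmed means and tested with limma-voom over all days; reads per gene are those of its best-covered site. Shares with 20 or more reads in every library were tested as log2 odds (pseudocount 0.5) with limma, weighted for overdispersion, Benjamini-Hochberg adjusted over all features. Reads are not unique molecules, so binomial intervals cover counting error only.

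The genes and lists were chosen with earlier results of these data known. Named are all members past the threshold (up to 30), up to 4 per role with the most reads, a fixed list of family genes, and the 10 largest in vitro differences; printed motifs are of members past a threshold, 30 bases or shorter; as more qualified than the 15 allowed, the choice among them was made after their values were seen. Some genes and 1 motif that these rules name are not reported here. Alternatives were scaling, filter, ribosomal and mitochondrial sites, days fitted alone, replicate block, summed sites, pseudocount, read minimum, weights and single samples left out. On simulated data for reads on day 7 against day 0 (2389 genes), 14.1% of 4-fold and 78.7% of 16-fold changes were recovered, with 3 false among 101 calls. For K+ against Li+ on day 7 (847 sites), 79.3% of 4-fold and 100% of 16-fold changes in odds were recovered. The simulated reads had an assumed spread, and low coverage was not set to 0. The simulated shares had no shift of whole libraries. These rates therefore hold for the simulated data and may not carry over to the samples.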

Additional observations from a re-analysis of the deposited data

Results flagged for a closer look

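At the chromatin gene sites named below, with 20 or more reads in all libraries of both days, K+ and Li+ changed order. The K+ stop share lay above the Li+ share in both samples of a later day and below it in both day 0 samples. The test of this change (an interaction in limma, log2 odds) passed for none of them, and over all 847 sites 0 passed. How many of all sites changed order was not determined. Over all sites with 20 reads in all 4 libraries of a day, K+ lay below Li+ in both day 0 samples at 32.3% of 1282. It lay above in both samples at 48.2% of 965 on day 3 and 30.6% of 3045 on day 7. Whether the named sites only follow that shift was not tested. At the Brd2 motif the difference between days was 2.28 ± 0.79 for day 3 against day 0 (adjusted p = 0.26) and 1.52 ± 0.67 for day 7 against day 0 (adjusted p = 0.70). At the Chd4 3′ UTR motif it was 2.98 ± 1.00 (adjusted p = 0.26) and 1.54 ± 0.85 (adjusted p = 0.79). At the Kdm5c coding motif it was 1.21 ± 0.97 (adjusted p = 0.65) and 1.05 ± 0.86 (adjusted p = 0.88). At a Kmt5c 3′ UTR site it was 2.20 ± 1.14 for day 7 against day 0 (adjusted p = 0.75). Summed over all chromatin sites, K+ minus Li+ was negative in both day 0 samples and positive in both day 3 samples, and the day means differed by 4.18 percentage points, a difference that was not tested.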

How the results depend on the processing

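With 2 samples a day, values rest on single libraries, and sites with few reads limit every share from cells. The planned quasi-likelihood count test was not run, since the tables could not be declared as counts. The counts of chromatin members called in K+ against Li+ in cells and in K+ share between days were 0 under every alternative that was run. K+ stops: without a filter 1 member was called for day 7 against day 0 and 2 for day 7 against day 3; the 2 days alone gave 1; leaving out single samples gave 0 to 1 for day 7 against day 3. Reads: the replicate block gave 3 for day 7 against day 0 and the 2 days alone 4, and leaving out single samples gave 0 to 12 there, 0 to 1 for day 3 against day 0 and 0 to 10 for day 7 against day 3. A minimum of 50 reads left 23 of 23 sites called in vitro and 39 of 39 for day 7 against in vitro. The replicate numbers did not pair the days (correlations of deviations 0.01, -0.17 and 0.09 for K+ stops, 0.25, -0.06 and 0.03 for reads).

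No value that changed sign was called as reported or with the other sign; the causes were not tested. Without day 0 replicate 1, Kmt2d (5.65) was called. In K+ stops, without day 0 replicate 2, Chd4 became -0.59 (day 7 against 0) and -0.12 (day 3 against 0); Setd5 became -0.10 without day 3 replicate 2 (day 3 against 0). For day 7 against 3, no filter gave Brd2 0.14 and Setd5 0.19, leaving out day 3 replicate 2 gave Setd5 0.23, and leaving out day 7 replicate 1 gave Chd4 0.24. In reads (day 7 against 0), median-ratio scaling gave Ehmt2 0.016 and Dnmt1 0.013. Total counts gave Kdm6b 0.14, Chd8 0.22, Ehmt2 0.35, Mta2 0.20 and Dnmt1 0.40. Chd4 became -0.0069 without ribosomal and mitochondrial sites, -0.025 with the 2 days alone and -0.18 without day 7 replicate 2. The block gave Kdm6b 0.24 and summed sites gave Ehmt2 0.15. Without day 0 replicate 1, Tet1 was 0.30 and Dnmt1 0.10; without day 0 replicate 2, Kdm6b 0.24 and Kmt2d -0.10; without day 7 replicate 1, Ehmt2 0.17 and Dnmt1 0.095. The opposite ends of these left-out-sample ranges were 1.43 and 1.90 for Chd4 and 1.06 for Setd5 against day 0, and -0.91 for both against day 3, in K+ stops. In reads they were -1.70 for Tet1, -1.43 for Kdm6b, -0.24 for Ehmt2, -0.21 for Dnmt1 and 0.17 for Chd4.

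Over all features, calls that moved by over 1.5 times were as follows. K+ stops, day 7 against 0 (53): total counts 93, no filter 154, 2 days alone 90, single samples out 11 to 29. Day 3 against 0 (2): median-ratio scaling 0, total counts 43, no filter 14, block 0, single samples out 0 to 8. Day 7 against 3 (21): no filter 134, single samples out from 0. Reads, day 7 against 0 (439): block 290, 2 days alone 200, single samples out 5 to 919; day 3 against 0 (2): block and 2 days alone 0, single samples out 0 to 197; day 7 against 3 (302): single samples out from 0. Day 7 K+ against Li+ with pseudocount 1, and day 7 against day 3 K+ share with the block, gave 1 call each over all sites in place of 0. A minimum of 50 reads left 1165 calls in vitro and 1905 for day 7 against in vitro.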
